A study of Mus musculus with 7 samples.

Results

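The genes of the cytoplasmic ribosomal proteins were followed in palatal shelves, the paired outgrowths of the upper jaw from which the secondary palate is made. Members were the probes whose annotated symbol begins with Rpl or Rps and a digit, with Rplp0, Rplp1, Rplp2 and Rpsa added and with kinases, Rps19bp1 and pseudogenes left out. This gave 83 of 25695 probe IDs, which read 65 of 16565 annotated genes. Each member gene had a single distinct row of values. The study compared C57BL/6 mouse embryos at E13.75, with 3 wild-type embryos and 4 Adamts9+/-:bt/bt embryos (called mutants here), 1 Illumina array for each. The mutants have lost 1 copy of Adamts9 and carry the belted (bt) allele on both copies of Adamts20. These genes encode secreted proteases that cleave versican, a matrix proteoglycan. The labels do not describe how either allele was made or whether the embryos were littermates. Adamts9 has no annotated probe here. Adamts20 had a mean log2 intensity of 5.73, below the limit (5.86) used to filter features. Neither gene was therefore used to check the genotypes.

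Ribosomal proteins build the small (40S) and large (60S) subunits around ribosomal RNA. Their mRNAs are among the most abundant of growing cells, and most begin with a 5′ terminal oligopyrimidine (TOP) tract through which the mTORC1 kinase controls their translation. In the embryo, loss of a copy of some of these genes is known to give tissue-specific defects, and several are mutated in human Diamond-Blackfan anaemia.

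The starts of members were set out first, because the TOP tract is the sequence that ties these genes to a common control. RefSeq start windows (GRCm38.p6) were found for 56 of the 65 genes, at 67 annotated starts. Each line gives the 15 bases before and the 15 bases from the start, on the gene's strand, with capitals on the longest run of at least 5 pyrimidines (C or T) that begins within 10 bases of the start. The first 5 genes are those that passed the test between genotypes, and the last 3 did not pass and are shown for their tracts. Rpl22 and Rps24 each have another annotated start (windows chr4:152325711-152325740 and chr14:24490738-24490767), which holds no such run and is not printed.
Rpl28, chr7:4792950-4792979, plus strand: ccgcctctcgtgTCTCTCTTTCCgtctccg
Rpl22, chr4:152324421-152324450, plus strand: cgctgCTTCTggaatgttccagctcccact
Rpl23, chr11:97782425-97782454, minus strand: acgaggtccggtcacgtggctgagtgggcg
Rpl5, chr5:107900513-107900542, plus strand: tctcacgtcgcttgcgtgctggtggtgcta
Rps24, chr14:24490663-24490692, plus strand: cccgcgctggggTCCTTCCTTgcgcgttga
Rps6, chr4:86857353-86857382, minus strand: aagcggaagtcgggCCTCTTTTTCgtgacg
Rpl38, chr11:114668565-114668594, plus strand: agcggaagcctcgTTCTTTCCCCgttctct
Rps10, chr17:27635230-27635259, minus strand: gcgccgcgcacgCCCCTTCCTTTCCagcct
Such a run stood at 37 of 67 member starts (55.2%, 95% exact binomial interval 42.6 to 67.4) and at 12477 of 32851 starts in the whole table (38.0%). For runs of at least 7 pyrimidines the shares were 35.8% and 14.4%. Among the 7 starts of the 5 genes that passed, 3 held a run of at least 5. The run of Rpl22, counted there, lies wholly before the annotated start (first base at -10, length 5). It is thus outside an mRNA that begins at that start. Starts of one gene are not independent, annotated starts can lie away from the used one, and a match is a description of the letters in this window.

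On the arrays, 57 of the 65 genes read above the limit, which was the 40th percentile of mean log2 intensity over all features (5.86). The 8 below it were Rpl6, Rpl17, Rplp2, Rps23, Rpsa, the muscle paralog Rpl3l, the testis paralog Rpl39l and the retrogene Rps23rg1, with means from 5.64 to 5.80 and no group above the limit. These genes were not tested. The limit is a filter on mean level with no detection call behind it, so they are not shown to be absent. Rpl14 lay just above, with a wild-type mean of 5.91 ± 0.03 (SD, n = 3) and a mutant mean of 5.94 ± 0.18 (SD, n = 4). A further 23 genes that the rule would take in the RefSeq gene table, Rpl11 and Rpl7 among them, have no annotated probe and were not analysed here. Of the 57 genes, 39 had a mean of 12 log2 units or more, where 168 of all 10869 tested features lay. The level of a probe depends on the probe and was not compared between genes. Ribosomal protein genes have many near-identical pseudogenes and paralogs, and what else a probe can bind was not tested.

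Few ribosomal protein genes differed between the genotypes. Of the 57 genes, 3 rose (Rpl23, Rpl5 and Rps24), 2 fell (Rpl28 and Rpl22) and 52 did not pass an adjusted p of 0.05, by limma with Benjamini-Hochberg adjustment over all tested features. That is 8.77% of the members, where 36.6% of all features passed, 16.8% higher and 19.8% lower. The median log2 difference, mutant minus wild type, was 0.03 over the members and -0.0035 over all features. The members lay between -0.41 (Rpl28) and 0.40 (Rpl7a), with 35 above 0 and 22 below, and 0 of 57 moved by 1 log2 unit or more, against 341 of 10869 features. The absolute difference had a median of 0.11 in the members and 0.17 in all features, and its 90th percentile was 0.25 against 0.60. No test was made of the difference between these shares.

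A gene that missed the threshold is not thereby shown to be equal, so the width of the intervals matters. The median SE was 0.07 in the members. In 53 of 57 members (93.0%) the 95% interval lay wholly between -0.5 and 0.5, and in 70.7% of all features it did so. The 4 members outside were Rpl28 (-0.54 to -0.28), Rpl22 (-0.51 to -0.13), Rpl22l1 (-0.01 to 0.54) and Rpl7a (-0.16 to 0.97). Rpl38, known from the Tail-short mouse for its part in axial patterning, had an interval of -0.13 to 0.15, and Rps19, the gene most often mutated in Diamond-Blackfan anaemia, one of -0.15 to 0.17. The groups stood apart, with no array of either inside the range of the other, in 14 of 57 members (24.6%) and in 42.6% of all features.

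**Figure D1:**
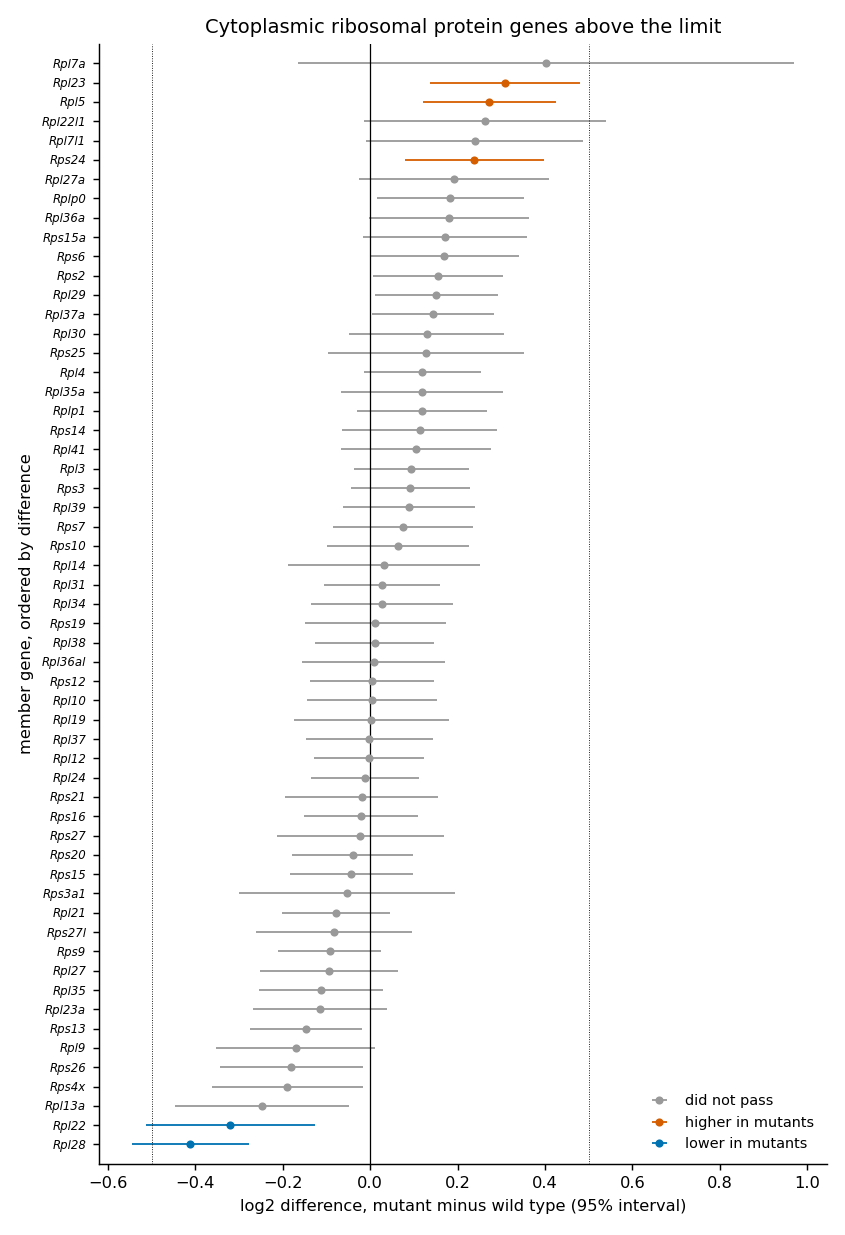
Log2 difference between mutant and wild-type arrays for the 57 member genes above the limit, ordered by size, with limma's 95% interval (horizontal bars, n = 3 wild type and 4 mutant). Dotted lines stand at -0.5 and 0.5, and 53 of the 57 intervals lie between them.

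Since most members were bright, they were also set beside other bright features, a choice made after the values were seen. Among features other than members with a mean of 12 or more, 28 of 129 passed (21.7%). Among the 39 members at that level, 4 passed (10.3%). The median absolute difference was 0.11 in the other bright features and 0.09 in these members. Within a group the arrays of members lay close together, with a median range of 0.16 log2 units over the 3 wild-type arrays and 0.15 over the 4 mutant arrays.

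**Figure D2:**
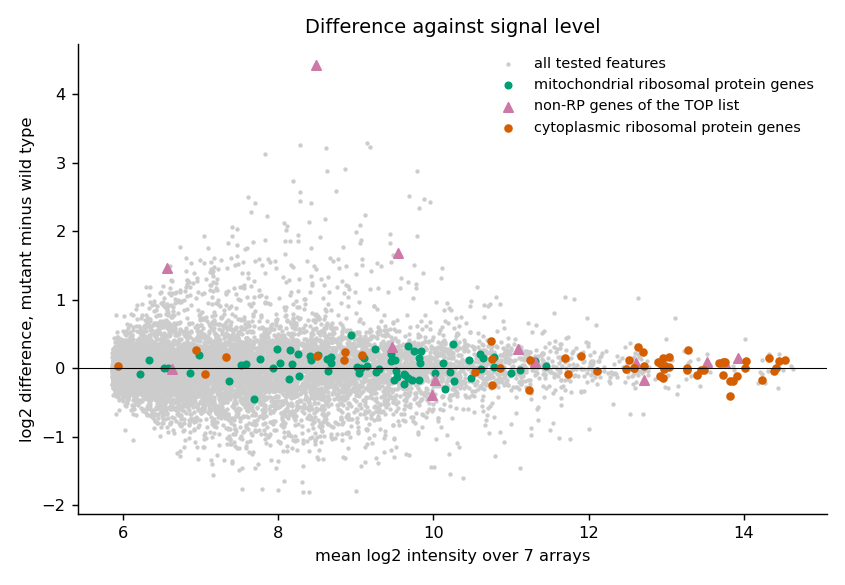
Log2 difference (mutant minus wild type) against mean log2 intensity over 7 arrays, 1 point for each tested feature. Cytoplasmic ribosomal protein genes reach from -0.41 to 0.40, while Eef2 of the non-RP TOP list stands at 4.42.

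**Figure D3:**
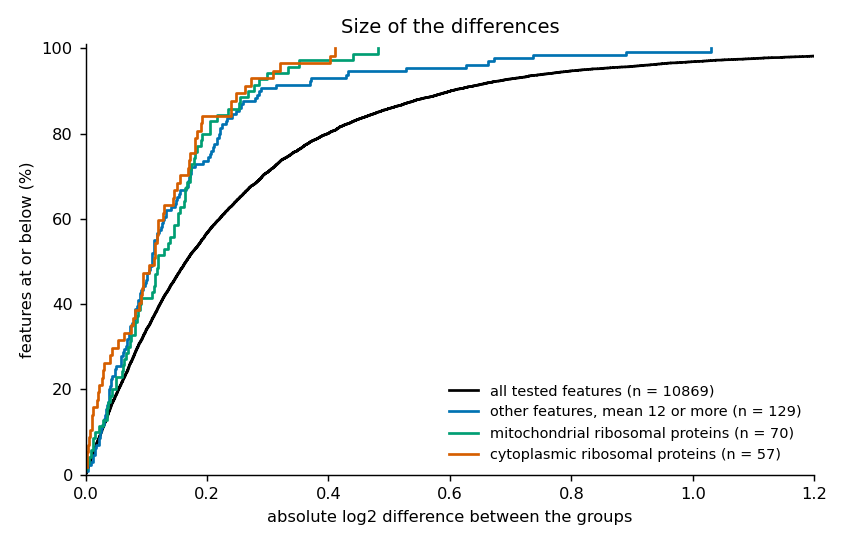
Cumulative share of features (vertical axis, %) with an absolute log2 difference at or below the value on the horizontal axis, for all 10869 tested features, 129 other features with a mean of 12 or more, 70 mitochondrial and 57 cytoplasmic ribosomal protein genes. At the 90th percentile the members stand at 0.25 and all features at 0.60.

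Among the large subunit genes other than the stalk and paralogs, 2 of 30 rose, 2 fell and 26 did not pass, with a median of 0.03. Rpl28, a protein of eukaryotic large subunits, gave the smallest p of the members. Here and for the genes that follow, arrays are given in the order of their replicate numbers. Rpl28 read 14.09, 14.03 and 14.05 in wild type and 13.71, 13.64, 13.57 and 13.64 in the mutants. Every mutant array lay below every wild-type array, and the fall was 0.41 on the log2 scale (1.33-fold lower, SE 0.06, limma adjusted p = 0.000846, exact two-sided permutation p = 0.0286, the smallest that 35 splits can give). Rpl28 passed under every alternative setting that was run, from -0.44 to -0.32.

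Rpl22, an RNA-binding protein of the large subunit needed for T cell development in mice, read 11.46, 11.50 and 11.27 in wild type and 11.16, 10.94, 11.20 and 11.08 in the mutants. Every mutant array lay below every wild-type array, with wild-type replicate 3 nearest to them (log2 difference -0.32, SE 0.09, limma adjusted p = 0.018, exact permutation p = 0.0286). Rpl22 no longer passed when wild-type replicate 1 (adjusted p = 0.068) or 2 (adjusted p = 0.0676) was left out. Its paralog Rpl22l1, which Rpl22 is known to hold down in mice, read 6.69, 6.92 and 6.77 in wild type and 6.96, 6.78, 7.30 and 7.19 in the mutants. There the groups overlapped, and the log2 difference of 0.26 did not pass (SE 0.12, adjusted p = 0.126). Of the fits that left out 1 array, Rpl22l1 passed only without mutant replicate 2 (0.35, adjusted p = 0.0352). Its limma adjusted p reached 0.316 without wild-type replicate 1. With median centring the difference was 0.09 (limma adjusted p = 0.587). Mutant replicate 2 was the lowest of the mutants for both Rpl22 and Rpl22l1. Whether these genes move against each other was not tested.

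Rpl23 and Rpl5 encode large subunit proteins that can also bind the p53 regulator MDM2, Rpl5 as part of the 5S ribonucleoprotein. Rpl23 read 12.37, 12.53 and 12.48 in wild type and 12.70, 12.66, 12.87 and 12.85 in the mutants, without overlap (log2 difference 0.31, SE 0.08, limma adjusted p = 0.0119, exact permutation p = 0.0286). Rpl5 read 13.12, 13.12 and 13.14 in wild type and 13.28, 13.41, 13.39 and 13.52 in the mutants, also without overlap (0.27, SE 0.07, limma adjusted p = 0.0124, exact permutation p = 0.0571). Every mutant array was higher for both genes. Rpl23 did not pass without wild-type replicate 1 (0.26, adjusted p = 0.0541), while Rpl5 passed without each array in turn (adjusted p from 0.00866 to 0.0447) but not with cyclic loess (0.24, adjusted p = 0.0618) or the replicate block (0.23, adjusted p = 0.0678).

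Other large subunit genes missed the threshold in the authors' table. Rpl13a, a protein also known for silencing translation of inflammatory mRNAs, read 10.86, 10.95 and 10.88 in wild type and 10.47, 10.66, 10.62 and 10.85 in the mutants. The mutants were all lower and replicate 4 lay close to wild type (-0.25, SE 0.09, adjusted p = 0.0537). Rpl13a passed as lower with median centring (-0.49, adjusted p = 0.00109) and cyclic loess (-0.26, adjusted p = 0.0473), and also with the stricter filter, every probe ID as a feature, the replicate block, array weights and mutant replicate 4 left out. Rpl7a, which lies near the exit of the peptide tunnel, had the widest spread of the members. It read 10.25, 10.05 and 11.24 in wild type and 10.71, 10.85, 11.01 and 11.11 in the mutants, so that wild-type replicate 3 lay above every mutant array and replicates 1 and 2 below them. The difference was 0.40 (SE 0.25, adjusted p = 0.245), and Rpl7a passed when wild-type replicate 3 was left out and with array weights.

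**Figure D4:**
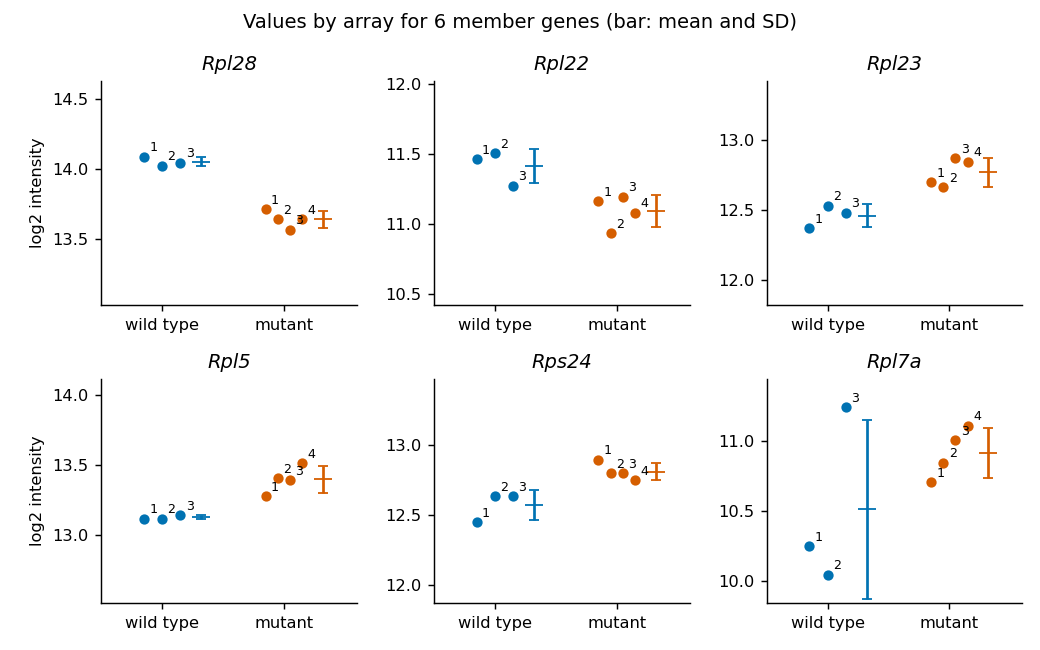
Log2 intensity on each array (points, numbered by replicate) for the 5 member genes that passed and for Rpl7a, with group mean and SD as bars (n = 3 wild type, 4 mutant); all panels span an equal width in log2 units. The groups separate in the first 5 genes, and wild-type replicate 3 of Rpl7a stands at 11.24 against 10.25 and 10.05.

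Among small subunit genes 1 of 21 rose, 0 fell and 20 did not pass, with a median of 0.01. At an unadjusted p under 0.05 by limma, Rps4x, Rps26 and Rps13 lay below 0 and Rps2 above 0. Past the adjusted threshold as lower were 0 with quantile normalization of the intensities, 1 with cyclic loess and 5 with median centring. In those fits 36.8%, 37.1% and 43.8% of all features passed in either direction. Rps24, which is mutated in some patients with Diamond-Blackfan anaemia, read 12.45, 12.63 and 12.63 in wild type and 12.89, 12.80, 12.80 and 12.75 in the mutants. The groups did not overlap, and the rise was 0.24 (SE 0.07, limma adjusted p = 0.0259, exact permutation p = 0.0286). It did not pass without wild-type replicate 1 (0.18, adjusted p = 0.104), nor without mutant replicate 1, 2 or 3 (adjusted p from 0.0508 to 0.0624). Rps6, the substrate of the S6 kinases, read 12.89, 12.83 and 13.10 in wild type and 13.18, 13.08, 13.12 and 13.07 in the mutants. The groups overlapped through wild-type replicate 3 (0.17, SE 0.08, adjusted p = 0.11), and without that array Rps6 passed (0.25, adjusted p = 0.0174). Rps19 read 13.07, 12.94 and 13.07 in wild type and 13.07, 13.10, 12.89 and 13.08 in the mutants, a difference of 0.01 (SE 0.07, adjusted p = 0.917).

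The stalk proteins recruit elongation factors to the large subunit. Rplp0 read 8.41, 8.41 and 8.37 in wild type and 8.50, 8.46, 8.71 and 8.66 in the mutants, which were higher without overlap but did not pass (0.18, SE 0.07, adjusted p = 0.0831). Rplp1 read 14.49, 14.39 and 14.53 in wild type and 14.57, 14.69, 14.53 and 14.57 in the mutants (0.12, SE 0.07, adjusted p = 0.193). Rplp2 was below the limit.

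Of the 4 paralogs above the limit, 0 passed (limma; 0 also at an unadjusted p of 0.05). Rpl7l1, a paralog of Rpl7 that acts in the nucleolus, read 8.66, 8.50 and 9.02 in wild type and 9.002, 8.92, 8.97 and 8.98 in the mutants. As for Rpl7a, wild-type replicate 3 lay above the mutants and the other wild-type arrays below (0.24, SE 0.11, adjusted p = 0.121), and the gene passed without replicate 3 (0.38, adjusted p = 0.00271). Rps27l, a target of p53, differed by -0.08 (SE 0.08, adjusted p = 0.456) and its partner Rps27 by -0.02 (SE 0.08, adjusted p = 0.868). Rpl36al differed by 0.01. With arrays centred on their medians 2 of the 4 paralogs passed as lower, Rps27l at -0.35 (adjusted p = 0.0115) and Rpl36al at -0.20 (adjusted p = 0.0464), while Rpl7l1 stood at -0.06 and Rps6 at -0.04.

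Of 18 ribosomal protein genes listed as mutated in Diamond-Blackfan anaemia, 11 have a probe and all 11 read above the limit. Rpl5 and Rps24 rose, 0 fell (1 with median centring, where 0 rose) and 9 did not pass, with a median of 0.03. The list shares these calls with the members above and adds no evidence of its own.

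Signal before normalization was read as well. The 65 member features held 8.20%, 8.17% and 8.49% of the summed linear intensity on the wild-type arrays and 8.64%, 8.95%, 8.58% and 9.18% on the mutant arrays. Every mutant array was higher, with means of 8.84% ± 0.28 (SD, n = 4) and 8.29% ± 0.18 (SD, n = 3). In the authors' normalized table the shares were 8.69% ± 0.15 and 8.65% ± 0.08, and the groups overlapped. The arrays themselves differed in brightness, with an upper quartile of linear intensity of 184 ± 11.8 in the mutants and 232 ± 20.3 in wild type (exact permutation p = 0.0286). Whether brightness moves this share was not tested.

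**Figure D5:**
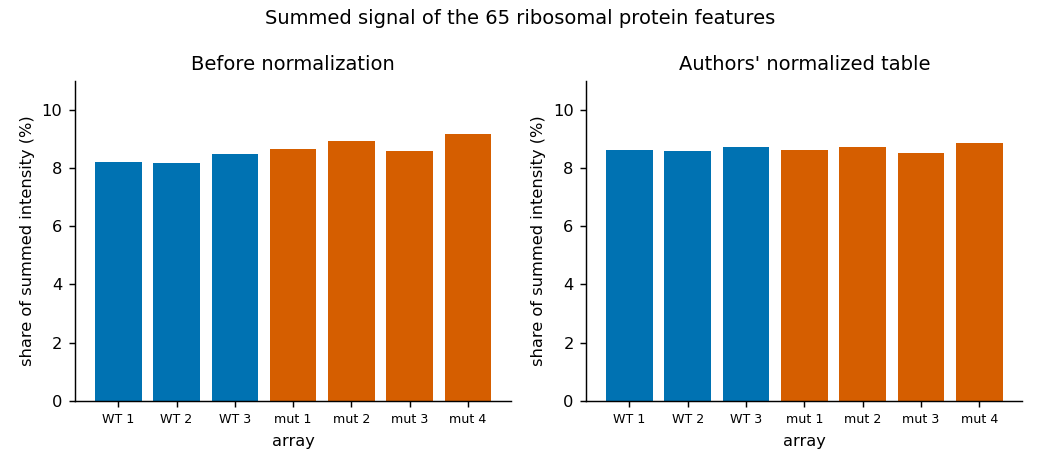
Share of the summed linear intensity (%) held by the 65 ribosomal protein features on each array, before normalization (left) and in the authors' table (right). The mutant arrays reach 8.58% to 9.18% on the left against 8.17% to 8.49% in wild type.

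Many small member differences changed sign with median centring, while the members that passed in the authors' table kept their sign under each scaling. The member median was 0.03 with quantile normalization of the intensities and 0.05 with cyclic loess. All arrays of the authors' table share nearly the same set of values, so a member's value follows its rank, and Rps9 read 13.78 on all 3 wild-type arrays while its intensity was 16331.5, 15257.1 and 14267.9. With arrays centred on their medians, the median of all features was -0.14 and that of the members -0.11, which is 0.03 above it. Under that scaling 0 members rose and 13 fell, among 826 features higher and 3931 lower, where the authors' table gave 1829 higher and 2148 lower. The falls of Rpl28 (-0.44) and Rpl22 (-0.57) passed there, and Rpl23 (0.12), Rpl5 (0.11) and Rps24 (0.04) did not.

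The count of members also rested on wild-type replicate 3. Without it 13 members passed, 9 higher and 4 lower (22.8% of members, with 39.9% of all features passing in that fit). Without wild-type replicate 1, 3 members passed, 1 higher and 2 lower (5.26%, all features 26.9%), and without wild-type replicate 2, 4 passed, 3 higher and 1 lower (7.02%, all features 27.2%). When the mutants were set against wild-type replicate 3 alone, which is then assumed to vary as they do, Rpl28 passed and no other member did.

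Genes that make ribosomes or act beside them were read in the same fit, with lists chosen with earlier results in view. Of all features 36.6% passed in that fit, and 43.8% with median centring. Mitochondrial ribosomal protein genes, which serve the separate ribosome of mitochondria, had 12 of 70 higher and 2 lower (20% of the list, median 0.04). With median centring 0 of them were higher and 32 lower. With the authors' scaling Mrpl3 was higher (8.66 ± 0.15 to 9.14 ± 0.08, adjusted p = 0.00214) and did not pass with median centring (0.18, adjusted p = 0.0706). Mrps27 was lower under both (7.94 ± 0.17 to 7.50 ± 0.09, adjusted p = 0.00498), and Mrpl30 was higher by 0.28 (adjusted p = 0.00491) but stood at -0.03 with median centring. Of the genes for RNA polymerase I and its factors, 1 of 12 rose and 1 fell (16.7% of the list), and with median centring 1 and 6. Taf1d, a factor of the polymerase I initiation complex, was higher by 0.21 (adjusted p = 0.0321) and stood at -0.02 with median centring. The gene that fell was Ubtf, the upstream binding factor of rDNA, at 8.76, 8.73 and 8.56 in wild type and 7.50, 7.82, 7.58 and 7.92 in the mutants (-0.98, SE 0.11, adjusted p = 0.000252). The groups did not overlap, and the gene fell under each of the 3 other scalings (-0.99 with cyclic loess). Of these, quantile normalization also sets values by rank, and with median centring the median of all features was -0.14.

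Among nucleolar rRNA processing factors 3 of 22 rose and 7 fell (45.5% of the list, against 36.6% of all features), with a median of 0.02. Fbl, the rRNA methyltransferase fibrillarin, fell from 11.66 ± 0.08 to 11.25 ± 0.06 (-0.41, SE 0.07, adjusted p = 0.00139), and Nop14, which acts in 40S maturation, was higher (7.87 ± 0.03 to 8.28 ± 0.04, adjusted p = 0.000639; 0.11 and adjusted p = 0.29 with median centring). Large subunit assembly and export genes had 2 of 22 higher and 5 lower (31.8% of the list). Efl1, the GTPase that frees late 60S particles of eIF6, fell by 0.79 (SE 0.08, adjusted p = 0.000137), and Bop1, part of the PeBoW complex, was higher by 0.47 (SE 0.07, adjusted p = 0.000722; 0.17 and adjusted p = 0.0749 with median centring). Among the genes that passed, both lists had more lower than higher in the authors' table. By sign alone, 12 nucleolar genes lay above 0 and 10 below. In the assembly list 13 lay above 0 and 9 below (median 0.01). With median centring the nucleolar list had 0 higher and 11 lower (median -0.22) and the large subunit assembly list 0 and 10 (median -0.24). With cyclic loess, where 37.1% of all features passed, the counts were 4 and 8 (median 0.02) and 3 and 5 (median 0.03).

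In the mTORC1 list 1 of 12 rose and 5 fell (50%, against 36.6% of all features), with a median of -0.13. The kinase gene Mtor read 7.31, 7.14 and 6.999 in wild type and 6.59, 6.82, 6.65 and 6.83 in the mutants, lower in every mutant array (-0.43, SE 0.09, adjusted p = 0.0072). Akt1s1, which encodes the mTORC1 inhibitor PRAS40, fell by 0.75 (SE 0.09, adjusted p = 0.000342), and Tsc1, another brake on mTORC1, fell by 0.35 (SE 0.07, adjusted p = 0.00437). Tsc1 was near the limit of 5.86, at 6.31, 6.24 and 6.15 in wild type and 5.78, 5.84, 5.96 and 5.94 in the mutants. Mtor, Akt1s1 and Tsc1 were lower under all 4 scalings (-0.40, -0.75 and -0.35 with cyclic loess). The scalings are not independent checks. Quantile normalization sets values by rank as the authors' table does, and with median centring the median of all features was -0.14. Arrays read mRNA levels and say nothing of mTORC1 activity or of translation.

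Probes for a few other mRNAs with a TOP tract moved further than those of the ribosomal protein genes. Of 14 such genes above the limit, 5 rose and 2 fell (median 0.09). The share is 50%, where 36.6% of all features passed. It counts Eif4b, which the limit kept only through its mutant values, so the filter favoured that call as higher. No conclusion is drawn from the shares. With median centring 3 rose and 3 fell, where 43.8% of all features passed. The elongation factor Eef2 read 5.93, 5.82 and 6.13 in wild type, near the limit of 5.86, and 10.31, 10.43, 10.44 and 10.34 in the mutants (4.42, SE 0.08, adjusted p = 1.84e-08). Eif4b, which assists the helicase of translation initiation and is among the 5, had a wild-type mean of 5.72, below the limit, and was kept in the fit through the mutant arrays, at 7.54, 7.12, 7.12 and 6.97. The RNA-binding protein gene Hnrnpa1 read 8.19, 7.96 and 9.60 in wild type and 10.21, 10.18, 10.23 and 10.46 in the mutants, with wild-type replicate 3 at a level between the mutants and its own group. Whether the probes of Eef2, Eif4b and Hnrnpa1 read their transcripts equally in both genotypes was not tested. Fau, the gene of ribosomal protein S30 that the symbol rule does not take, read 12.92, 13.06 and 12.85 in wild type and 12.83, 12.83, 12.69 and 12.80 in the mutants. The mutants were lower without overlap but did not pass (-0.15, SE 0.07, limma adjusted p = 0.128, exact permutation p = 0.0286). With median centring Fau passed as lower (-0.36, limma adjusted p = 0.0188).

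The cells sampled may also have differed. Of 11 palate mesenchyme markers above the limit, 4 fell and 0 rose, which is 36.4%, near the 36.6% of all features that passed. Twist1 (-1.25) and Barx1 (-0.95) were among the 4. Of the 11 markers, 8 lay below 0 and 3 above, with a median of -0.18. The list mean was 9.03 to 9.12 in wild type and 8.61 to 8.87 in the mutants. Neuron markers rose in 15 of 18 genes (83.3%), with list means of 6.59 to 7.48 and 8.68 to 9.05. Endothelium markers fell in 5 of 8 (62.5%), from 7.90 to 8.14 down to 7.38 to 7.64. In whole tissue, fewer cells of a type and less RNA per cell cannot be told apart. Epithelium had 2 of 8 genes higher, glia 1 of 3, muscle 1 of 8, red cells 1 of 5 lower and leukocytes 0 of 5 in either direction. Each of these shares was below that of all features. Though 2 epithelium genes passed as higher, 5 of the 8 lay below 0 and 3 above (median -0.10). With median centring, where 43.8% of all features passed, 8 of 11 mesenchyme and 4 of 5 red cell genes were lower. Epithelium then had 1 higher and 2 lower, and glia, muscle and leukocytes had 0 in either direction. Under that scaling 6 of 8 endothelium genes were lower and 15 of 18 neuron genes higher. The part of cell makeup in the member values was not tested.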

How the data were processed

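RNA of 7 palatal shelf samples, 1 embryo each, was extracted with RNeasy and labelled with the Illumina TotalPrep kit, per the labels' protocols. The authors deposited linear intensity per probe and a table of log2 values. The normalization of the log2 table is not given in the sources used here. Within an array it keeps the order of the intensities (Spearman 1), and 99.3% to 100% of each array's values also occur on wild-type replicate 1, so that ranks set the values. Precision is limited by the number of arrays, and the p-values measure the spread between these embryos.

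Probe IDs with identical rows were merged, giving 18116 features. Features with a mean above the 40th percentile (10869) were fitted with limma 3.58.1 in R 4.3.3 (lmFit and eBayes), with Benjamini-Hochberg adjustment and a threshold of 0.05. Single values had an exact two-sided permutation test over 35 splits. Symbols came from the platform annotation, with 1 symbol for 23976 probe IDs, several for 0 and none for 1719. The fit was tested on simulated data. Named genes were the members that passed (up to 10 in each direction), members listed by role (stalk, 5S particle, Rps6, Rps19, Rpl38, paralog pairs, Fau) and up to 3 genes of each pathway list that passed with the smallest p. Rpl7a, Rpl13a, Rpl14, Rps4x, Rps2, Rps9, Rps13, Rps26, the bright features and the band of ±0.5 were picked after their values were seen.

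Alternatives were normexp (offset 50) with quantile normalization, median centring and cyclic loess of the deposited intensity, other filters, every probe ID as a feature, leaving out each array, a replicate block, wild-type replicate 3 alone, array weights and other tract lengths. The members and all lists were chosen with earlier results of these data known.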

Additional observations from a re-analysis of the deposited data

Results flagged for a closer look

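In 3 of the 57 member genes, 1 mutant array lay far from the other mutant arrays for the width of its group. Rpl10, a large subunit protein at the subunit interface, read 13.92 in mutant replicate 3 and an identical 14.05 in the others. That tie comes from the scaling by rank. Its linear intensities were 17633.5, 16487.3, 15666.6 and 16071 in mutant replicates 1 to 4, where replicate 3 stood close to replicate 4. Rps19 read 12.89 in mutant replicate 3 and 13.07 to 13.10 in the others. Rpl4, whose long loop lines the peptide tunnel, read 8.98 in mutant replicate 1 and 8.86 to 8.88 in the others. Chance alone marks about 5% of groups in this way, a rate that does not allow for tied values such as those of Rpl10.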

How the results depend on the processing

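With 3 and 4 arrays, small differences are limited by array number and by the scaling. With median centring 0 members were higher and 13 lower (22.8% of members, with 43.8% of all features passing in that fit). The medians were then -0.11 for members, -0.14 for the large and -0.10 for the small subunit. Pathway list genes were 4 higher and 69 lower there, and 24 and 22 in the authors' table, where 36.6% of all features passed. With cyclic loess 2 members were higher and 4 lower (10.5%, all features 37.1%), and these medians were 0.0527, 0.0531 and 0.0312. Leaving out each array in turn gave 1 to 9 members higher and 1 to 4 lower (5.26% to 22.8%, all features 26.9% to 39.9%). The medians were 0 to 0.0457 (large subunit -0.003 to 0.0464, small subunit -0.0015 to 0.0378). Of the list genes 12 to 28 were then higher and 14 to 24 lower. With the replicate block 0 members were higher and 2 lower (3.51%, all features 26.1%), the median was 0 and that of the large subunit -0.003. List genes were 10 higher and 15 lower in that fit. Same-numbered arrays did not deviate together (r = -0.20, -0.16 and 0.06), so the numbers were not taken as pairs. Against wild-type replicate 3 alone, the member median was 0.0085 and the small subunit median -0.0206. Array weights gave 10 and 6 members (28.1%, with 43.7% of all features passing). The share of member starts with a tract was 35.8% both for runs of at least 7 and for a start within 5 bases. No filter gave 3 members higher and 2 lower (7.69%, all features 21.4%). A stricter filter and every probe ID each gave 3 and 3 (10.7%, all features 45.4% and 40.9%). Counting every member feature equals the analysis given, since each gene has 1. The cause of these changes was not tested.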
